A study of Homo sapiens with 60 samples.

Results

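The 10 genes described here carry bile acid synthesis, bile acid transport and the farnesoid X receptor (FXR) circuit, and were taken by symbol as 10 of the 60675 genes of the count table. They are NR1H4, which encodes FXR, its target NR0B2 (the repressor SHP), the hormone gene FGF19, the transporter genes SLC51A, SLC51B and SLC10A1, the conjugating enzyme gene BAAT, and the synthesis genes CYP7A1, CYP8B1 and CYP27A1. The cells were HepG2, an established line from a human hepatocellular carcinoma, and their RNA was read after 24 h with an extract or with vehicle. Cinnamomi Cortex, Astragali Radix, Cnidii Rhizoma and Rehmanniae Radix Preparata are single herbs, and Sagunja-tang, Samul-tang and Palmul-tang are formulas of several herbs. The 7 extracts were water extracts and were used at 3 doses, 20, 100 and 500 µg/mL. There were 3 libraries per dose of 6 extracts, 1 library per dose of Palmul-tang, and 3 vehicle libraries, 60 in all.

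Hepatocytes make bile acids from cholesterol. CYP7A1 catalyses the first and rate-limiting step of the classical route, CYP8B1 sets the share of cholic acid, and CYP27A1 oxidises the side chain and opens the alternative route. BAAT joins bile acids to glycine or taurine, SLC10A1 (NTCP) takes them up from blood, and SLC51A and SLC51B are the 2 subunits of the exporter OSTα-OSTβ. Bile acids activate FXR, which raises NR0B2, SLC51A, SLC51B and BAAT and, through SHP in liver and FGF19 from the gut, lowers CYP7A1. In human hepatocyte cultures FGF19 can also be made by the liver cells themselves.

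Total counts ran from 16.5 to 34.4 M per library, with a median of 25.5 M. The vehicle is dimethyl sulfoxide. Its labels state 0.1%, whereas the design text states 2%. The labels of the extract libraries name water extracts and no dimethyl sulfoxide, so whether they held the same solvent is not given there. In a comparison with vehicle a difference in solvent could not be told apart from the extract. Sample codes start with a number, here named the set. Cinnamomi Cortex shares set 6 with Astragali Radix, Cnidii Rhizoma shares set 5 with Rehmanniae Radix Preparata, and Sagunja-tang shares set 7 with Samul-tang. All 60 titles, of vehicle and extract libraries alike, name BatchB, without saying what that batch covers. Vehicle libraries carry none of the set numbers, so in a comparison with vehicle the extract and the set cannot be told apart. A comparison between doses or between extracts of 1 set has no such limit. Nothing in the labels says that replicates were separate cultures, so p-values measure the spread between these libraries, which may be technical. Hepatocyte markers were high in all 60 libraries, with 162016 to 371965 counts of ALB (albumin). PTPRC, CD3E and DCN, markers of leukocytes, T cells and fibroblasts, had at most 1 count. The other markers of other cell types were not all low. LYZ had 18172 to 71506 counts, PDGFRB 87 to 387, PECAM1 23 to 77 and VWF 8 to 30. FABP2 had 2 to 36 counts, COL1A1 1 to 21, CDX2 0 to 3 and KRT7 0 to 2. In set 6, replicate 1 had the lowest NR0B2 level of its group in 6 of 6 groups, so results of that set were also computed without those libraries.

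Levels are given in CPM, counts scaled to a common library size, with library sizes corrected by TMM, a trimmed mean of ratios. Changes are log2 ratios ± SE from 1 edgeR quasi-likelihood model over 57 libraries and 16167 genes, adjusted by Benjamini-Hochberg, and a gene is said to have risen or fallen at an adjusted p under 0.05. Of the 10 genes, 8 passed the filter on low counts, and each of the 8 had at least 40 counts in every library. FGF19 had 0 to 9 counts per library and none in 8 of 60, and SLC10A1 had 0 to 9 counts and none in 2 of 60. Both were below the filter. In the fit without the filter neither was called in any of the 18 comparisons with vehicle, with adjusted p of at least 0.316 for FGF19 and 0.111 for SLC10A1.

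The promoters of 4 of the genes that changed most are shown because binding letters of nuclear receptors can be looked for in them. They are 300 bases from RefSeq on GRCh38.p14, from 250 before to 50 after an annotated start, written 5′ to 3′ in the sense of the gene. Capitals mark AGGTCA on either strand (TGACCT where it lies on the opposite strand), the core site of many nuclear receptors. SLC51A is at chr3:196216284-196216583 (plus), SLC51B at chr15:65045137-65045436 (plus), NR1H4 at chr12:100503110-100503409 (plus) and BAAT, at 1 of its 2 listed starts, at chr9:101383515-101383814 (minus).
SLC51A: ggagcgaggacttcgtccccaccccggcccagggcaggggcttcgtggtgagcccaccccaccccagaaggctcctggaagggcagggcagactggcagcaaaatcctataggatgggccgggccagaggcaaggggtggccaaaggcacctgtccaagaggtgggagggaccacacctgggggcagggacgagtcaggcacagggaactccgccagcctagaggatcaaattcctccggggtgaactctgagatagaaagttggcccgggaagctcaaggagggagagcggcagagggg
SLC51B: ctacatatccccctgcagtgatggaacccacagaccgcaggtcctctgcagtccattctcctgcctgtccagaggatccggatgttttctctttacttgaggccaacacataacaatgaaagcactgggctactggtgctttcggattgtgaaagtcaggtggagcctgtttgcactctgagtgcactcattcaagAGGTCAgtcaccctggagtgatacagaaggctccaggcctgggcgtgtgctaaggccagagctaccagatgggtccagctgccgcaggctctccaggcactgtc
NR1H4: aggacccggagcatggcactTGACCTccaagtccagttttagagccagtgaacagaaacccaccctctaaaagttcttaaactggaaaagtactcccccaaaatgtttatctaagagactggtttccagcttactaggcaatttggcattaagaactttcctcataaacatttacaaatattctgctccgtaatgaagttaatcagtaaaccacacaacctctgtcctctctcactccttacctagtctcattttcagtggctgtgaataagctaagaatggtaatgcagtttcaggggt
BAAT: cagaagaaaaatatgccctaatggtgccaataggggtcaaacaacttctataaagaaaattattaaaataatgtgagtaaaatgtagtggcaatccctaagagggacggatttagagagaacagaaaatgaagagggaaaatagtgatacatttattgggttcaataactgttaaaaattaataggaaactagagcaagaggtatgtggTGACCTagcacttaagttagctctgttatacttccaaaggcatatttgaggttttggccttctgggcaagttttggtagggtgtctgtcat
AGGTCA occurred once in SLC51B, 54 bases before the start on the same strand, once in NR1H4 at position -230 and once in BAAT at position -41, both on the opposite strand. These 300 bases of SLC51A and those at the other listed start of BAAT held none. Of 35116 human promoters of this length, 13.8% hold AGGTCA on either strand. The inverted repeat of AGGTCA and TGACCT with 1 base between them, a form of the FXR site that reads the same on both strands, was in 0 of the 35116, and CAAGGTCA, the site of NR5A2 (which overlaps AGGTCA), was in 1.28% of them and in none of these 4. A match describes letters, not binding.

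In vehicle cells the 8 tested genes differed widely in level per length of merged exons. CYP27A1 led with 53.6 ± 0.906 CPM per kb (SD, n = 3), followed by NR0B2 with 36.1 ± 1.28 and NR1H4 with 14.1 ± 0.60 CPM per kb. SLC51B had 8.46 ± 0.222 CPM per kb and its partner SLC51A 4.67 ± 0.281. BAAT had 2.63 ± 0.194, CYP7A1 1.73 ± 0.162 and CYP8B1 1.19 ± 0.119 CPM per kb. Each neighbouring pair in this order was further apart than the sum of their SDs, which hold the spread of libraries and not the choice of length. In CPM not divided by length SLC51A was above SLC51B (24.7 against 7.96), with merged exons of 5293 and 940 bases. SLC10A1 and FGF19 stood far below, at 0.0814 ± 0.0369 and 0.0290 ± 0.0145 CPM per kb.

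NR1H4 lies at chr12:100473708-100564413 on the plus strand of GRCh38 in GENCODE 29, NR0B2 at chr1:26911489-26913966 on the minus strand, and FGF19 at chr11:69698232-69704642 on the minus strand. SLC51A spans chr3:196211487-196243178 and SLC51B chr15:65045370-65053396, both on the plus strand, and SLC10A1 chr14:69775417-69797289 on the minus strand. BAAT spans chr9:101360417-101383519, CYP7A1 chr8:58490178-58500236 and CYP8B1 chr3:42856005-42876165 on the minus strand, and CYP27A1 chr2:218781749-218815293 on the plus strand. All are protein-coding genes, and counts are over whole genes. Exons of SLC51A overlap those of PCYT1A on the opposite strand, a gene with a median of 6541 counts per library against 677 for SLC51A. CYP8B1 overlaps ACKR2 in the same way, with a median of 63 counts against 121 for CYP8B1. The kit marks strand, but whether counting used it is not given in the sources used here.

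**Figure D1:**
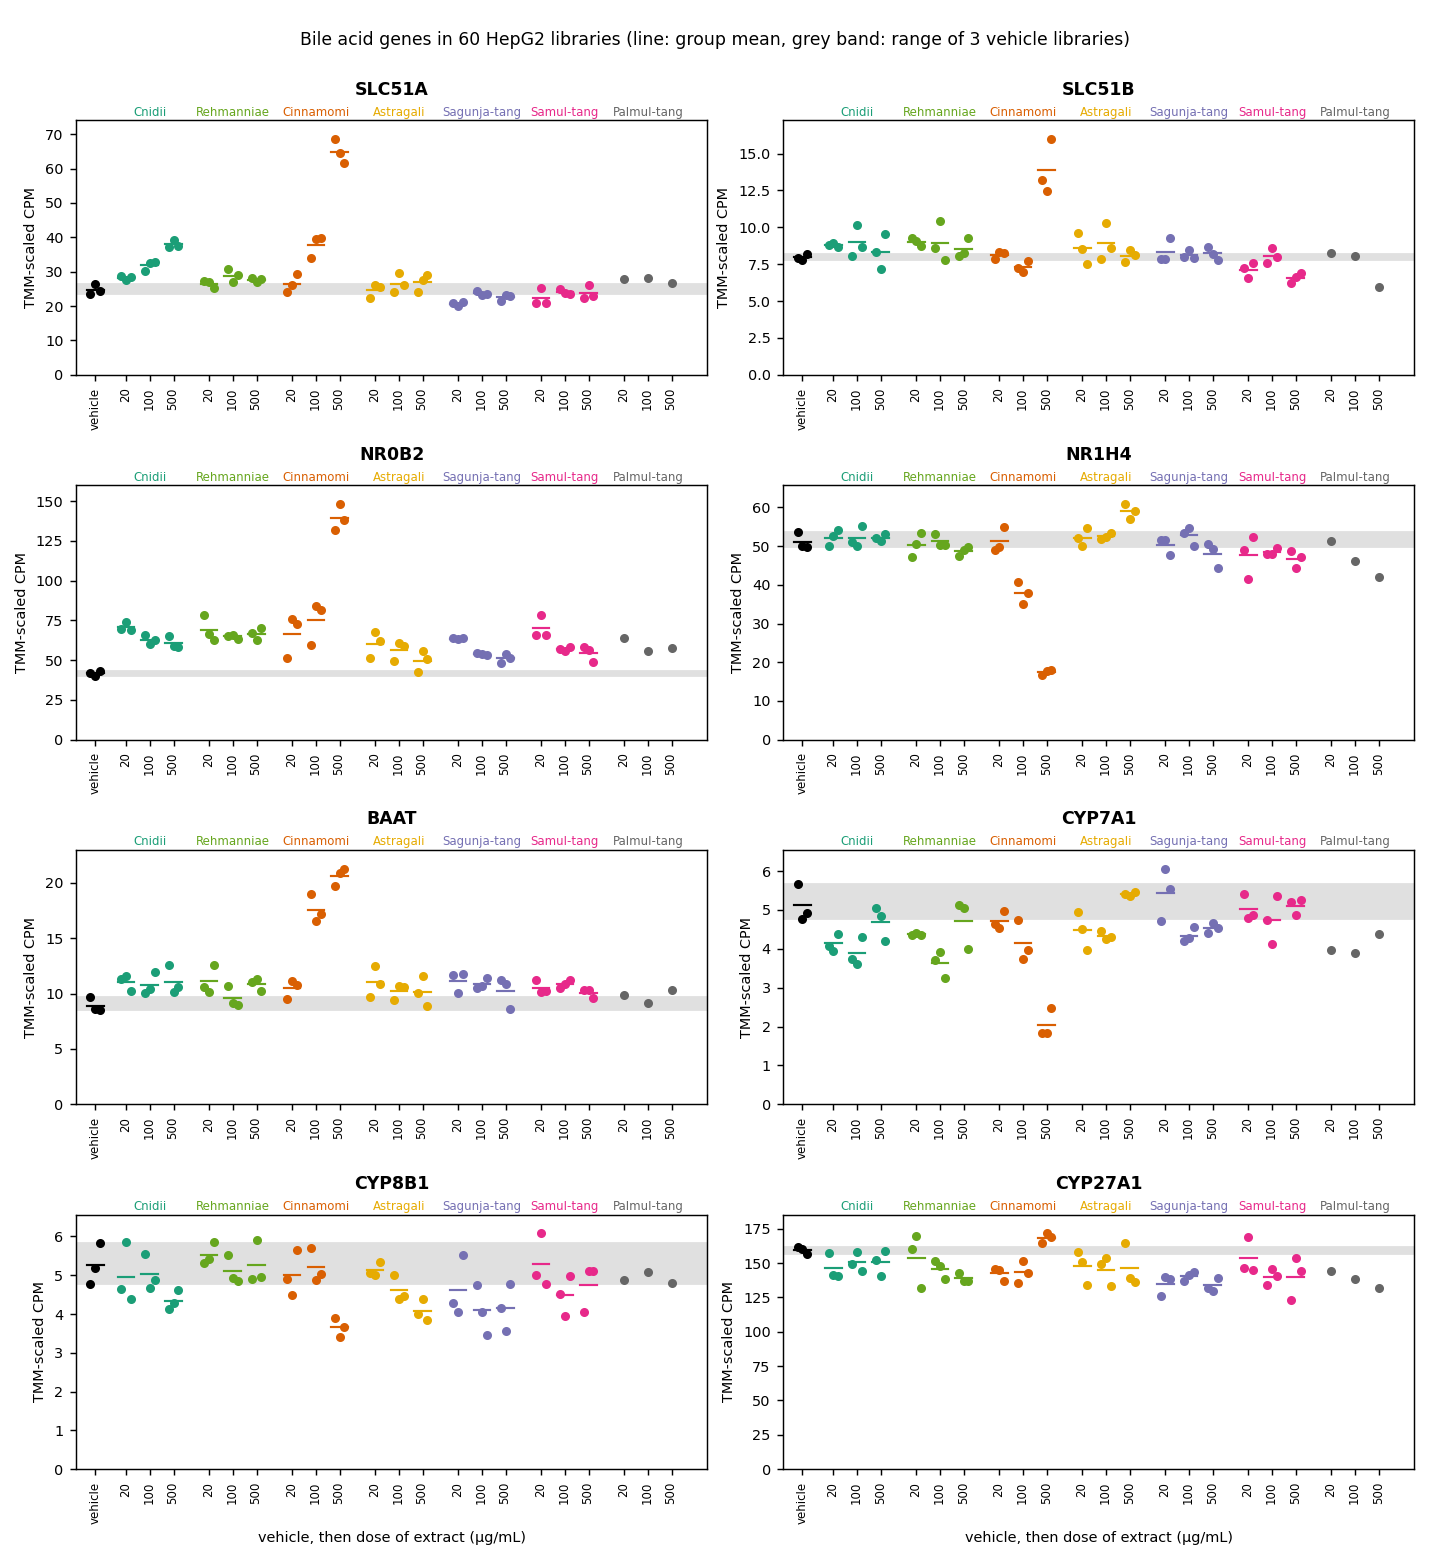
TMM-scaled CPM (y axis, from 0) of the 8 tested genes in every library, by vehicle and then by extract and dose in µg/mL on the x axis. Points are libraries, lines group means and the grey band the range of the 3 vehicle libraries. Cinnamomi Cortex at 500 µg/mL lies above all 57 other libraries in 4 genes and below them in 2, and overlaps them for CYP8B1 and CYP27A1. The share of all tested genes that stand apart in this way was not computed, and 62.7% were called against vehicle at this dose. NR0B2 lies above the vehicle band in nearly all extract libraries.

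Cinnamomi Cortex at 500 µg/mL changed 7 of the 8 tested genes against vehicle, 4 upwards and 3 downwards. At this dose 62.7% of all tested genes were called, 31.1% higher and 31.6% lower, so changed genes were common at this dose. With plain library totals in place of TMM the split was 2599 higher and 8146 lower, in place of 5027 and 5114. The FXR targets NR0B2, SLC51A, SLC51B and BAAT rose 3.34-fold, 2.62-fold, 1.74-fold and 2.31-fold. The gene of the receptor itself, NR1H4, fell to 0.342 of its vehicle level. CYP7A1 and CYP8B1 fell to 0.401 and 0.694 of theirs. CYP27A1 was not called. The median log2 change was 0.44 over the 8 genes and -0.02 over all tested genes.

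NR1H4 had 16.7, 17.7 and 17.99 CPM with Cinnamomi Cortex at 500 µg/mL, against 53.6, 50.1 and 49.7 CPM in vehicle libraries. The groups were far apart, and the change of -1.55 ± 0.0681 had an adjusted p of 4.62e-25. NR0B2 had 132, 148 and 138 CPM with the extract, against 41.7, 40.3 and 43.3 CPM with vehicle. NR0B2, the repressor that FXR induces, was thus higher in every extract library, with a log2 change of 1.74 ± 0.107 (adjusted p = 1.34e-19). FGF19 had 0, 1 and 0 counts with the extract, against 1, 2 and 3 counts with vehicle, both at or under the limit of 3 counts per library, so no ratio is given.

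SLC51A had 68.6, 64.4 and 61.6 CPM with Cinnamomi Cortex at 500 µg/mL, against 23.4, 26.3 and 24.5 CPM with vehicle, a log2 change of 1.39 ± 0.0731 (adjusted p = 4.45e-22). SLC51B, the other subunit of the exporter, had 13.2, 12.5 and 16.0 CPM with the extract, against 7.92, 7.77 and 8.18 CPM with vehicle. Both subunits were above vehicle in all 3 libraries, but the log2 change of SLC51B was smaller, 0.80 ± 0.0989 (adjusted p = 9.23e-10), a difference between the genes that was not tested. PCYT1A, which shares exonic positions with SLC51A on the other strand and encodes a phosphatidylcholine synthesis enzyme, averaged 316 CPM with the extract, against 239 CPM with vehicle, a log2 change of 0.40 ± 0.0323. A contribution of PCYT1A reads to the SLC51A counts was not tested. SLC10A1 had 0, 1 and 2 counts with the extract, against 3, 4 and 7 counts with vehicle. These counts did not overlap, and in the fit without the filter its log2 change was -1.78 ± 0.848 (adjusted p = 0.111).

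BAAT had 19.7, 20.9 and 21.3 CPM with the extract, against 9.68, 8.56 and 8.51 CPM with vehicle, a log2 change of 1.21 ± 0.0965 (adjusted p = 1.7e-15). CYP7A1 had 1.84, 1.84 and 2.48 CPM with the extract, against 5.66, 4.76 and 4.92 CPM with vehicle, and its change was -1.32 ± 0.124 (adjusted p = 3.77e-13). For both genes no extract library reached the range of vehicle. CYP8B1 had 3.90, 3.40 and 3.66 CPM with the extract, against 4.78, 5.19 and 5.83 CPM with vehicle, a change of -0.53 ± 0.134 (adjusted p = 0.000624). CYP27A1 had 164, 172 and 169 CPM with the extract, against 162, 161 and 157 CPM with vehicle. Its libraries did not overlap, yet the log2 change of 0.08 ± 0.0747 did not pass (adjusted p = 0.389). With plain library totals in place of TMM, CYP27A1 fell by 0.20 (adjusted p = 0.0188), so no direction can be given for it. That scaling moved the median of all genes by -0.28, and the other 7 genes kept their direction and call.

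Other features of these libraries moved with the same dose. The TMM factors were 0.834 to 0.863 with Cinnamomi Cortex at 500 µg/mL, all below those with vehicle, which reached 1.04, and mitochondrial genes took 19.4 to 22.3% of counts, against 14.4 to 16.7% with vehicle. Of 9 hepatocyte markers 7 rose, and their summed level was 53892 to 54500 CPM with the extract, against 41283 to 41641 CPM with vehicle. Of 11 markers of other cell types 6 were tested, of which LYZ and PDGFRB rose and COL1A1 and FABP2 fell. Their summed level was 2903 to 3323 CPM, against 1161 to 1307 CPM, nearly all from LYZ (19.1 to 19.6 CPM without it, against 9.5 to 10.9 CPM), and PTPRC, CD3E and DCN had at most 1 count in any library. The part of these shifts in the bile acid genes was not tested. In bulk RNA fewer cells of a kind and less RNA per cell cannot be told apart.

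The 8 genes did not move at the same dose. BAAT averaged 8.92 CPM in vehicle and 10.5, 17.6 and 20.6 CPM at 20, 100 and 500 µg/mL of Cinnamomi Cortex. Most of its rise was present at 100 µg/mL, where the step from 20 was 0.74 ± 0.0952 (adjusted p = 1.24e-07) and the next step 0.23 ± 0.0913 (adjusted p = 0.0292). SLC51A averaged 24.7 CPM in vehicle and 26.5, 37.8 and 64.8 CPM at the 3 doses, and rose at both steps, by 0.51 ± 0.0741 (adjusted p = 1.9e-06) and 0.78 ± 0.0713 (adjusted p = 2.61e-13). SLC51B, in contrast, averaged 7.96 CPM in vehicle and 8.14, 7.30 and 13.9 CPM at the 3 doses. Its 3 libraries at 100 µg/mL all lay below vehicle, with an uncalled step of -0.16 ± 0.105 (adjusted p = 0.452), and the step to 500 was 0.93 ± 0.102 (adjusted p = 6.12e-11). The 2 subunits of the exporter thus had different dose courses, of which the difference was not tested.

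NR1H4 averaged 51.1 CPM in vehicle and 51.2, 37.8 and 17.5 CPM at the 3 doses, and fell at both steps, by 0.44 ± 0.0621 (adjusted p = 1.06e-06) and 1.12 ± 0.0699 (adjusted p = 6.66e-19). NR0B2 averaged 41.7 CPM in vehicle and 66.6, 75.2 and 139.5 CPM at the 3 doses. Its step between the lower doses was 0.17 ± 0.104 (adjusted p = 0.392) and its step to 500 was 0.89 ± 0.103 (adjusted p = 2.42e-10). CYP7A1, CYP8B1 and CYP27A1 changed only at the upper of the 2 steps, by -1.02 ± 0.130 (adjusted p = 3.18e-09), -0.51 ± 0.136 (adjusted p = 0.00138) and 0.23 ± 0.0752 (adjusted p = 0.00733), and had -0.19, 0.04 and 0.01 at the lower, none of them called. Of all genes 7.43% were called at the step to 100 and 55.4% at the step to 500. These steps were added after the data had been seen and were not computed with plain library totals. With those totals the dose trend of CYP27A1 was -0.014, in place of 0.12, so no direction can be given for its step.

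**Figure D2:**
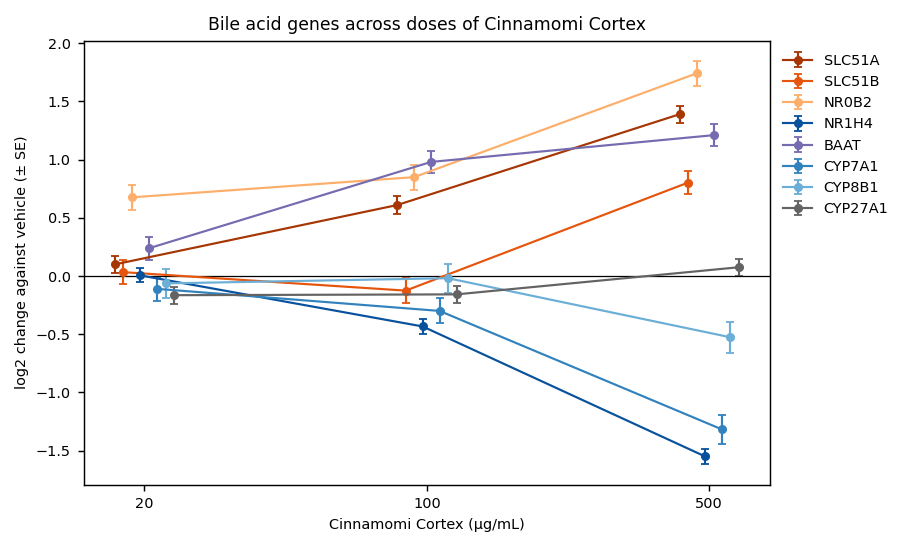
Log2 change against vehicle (y axis, ± SE) at 20, 100 and 500 µg/mL of Cinnamomi Cortex (x axis) for the 8 tested genes, 3 libraries a group. BAAT is near its final level at 100 µg/mL, SLC51B is below 0 there and at 0.80 at 500, and NR1H4 reaches -1.55.

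The dose trend, the log2 change per 5-fold step within the set, passed for all 8 genes with Cinnamomi Cortex, where 61.9% of all genes were called. It was 0.64 ± 0.0363 for SLC51A, 0.53 ± 0.0515 for NR0B2, 0.49 ± 0.0474 for BAAT, 0.38 ± 0.0493 for SLC51B and 0.12 ± 0.0375 for CYP27A1 (-0.01 with plain library totals). It was -0.78 ± 0.0340 for NR1H4, -0.60 ± 0.0626 for CYP7A1 and -0.23 ± 0.0672 for CYP8B1. At 100 µg/mL against vehicle, where 19.4% of genes were called, BAAT (0.98), NR0B2 (0.85) and SLC51A (0.61) rose and NR1H4 (-0.43) and CYP7A1 (-0.30) fell. The call of CYP7A1 at 100 µg/mL (adjusted p = 0.0435) ended without vehicle replicate 1 or 3 or without extract replicate 2 or 3, with values of -0.41 to -0.22 and adjusted p up to 0.238. At 20 µg/mL, where 7.16% were called, NR0B2 (0.68) was the only one of the 8 called.

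Astragali Radix at 500 µg/mL is the other extract of set 6, so a comparison with it needs no vehicle. Of the 8 genes 7 differed, against 62.7% of all genes. SLC51A (1.26 ± 0.0739), SLC51B (0.78 ± 0.102), NR0B2 (1.48 ± 0.106), BAAT (1.02 ± 0.0979) and CYP27A1 (0.21 ± 0.0754) were higher with Cinnamomi Cortex, and NR1H4 (-1.76 ± 0.0684) and CYP7A1 (-1.40 ± 0.126) lower. CYP27A1 had an adjusted p of 0.0161, which ended without Cinnamomi Cortex replicate 2 or Astragali Radix replicate 2 or 3 (up to 0.117), and its direction turned with plain library totals (-0.06). CYP8B1 had 3.90, 3.40 and 3.66 CPM with Cinnamomi Cortex, against 4.00, 4.39 and 3.85 CPM with Astragali Radix. The groups overlapped, and its change of -0.15 ± 0.143 was not called (adjusted p = 0.355). The dose trends of the 2 extracts differed in 7 of the 8 genes, against 50.9% of all genes. Without the replicate 1 libraries of set 6 the calls at 500 µg/mL of NR1H4, NR0B2, SLC51A, SLC51B, BAAT and CYP7A1 held, as they did for Cinnamomi Cortex against vehicle.

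Of 52 other genes of the pathway, in 4 lists, 40 were tested with Cinnamomi Cortex at 500 µg/mL. The counts that rose depended on the scaling, with 13 of the 40 higher and 19 lower, against 4 higher and 24 lower with plain library totals. Of all tested genes 31.1% were higher and 31.6% lower at this dose with TMM. Among 9 tested synthesis genes of 14 listed, 3 rose and 4 fell (1 and 6 with plain totals). HSD3B7, which acts after CYP7A1, rose by 0.51 ± 0.0681, and AKR1D1, the reductase of the steroid ring, fell by 0.93 ± 0.0704. HSD17B4, of peroxisomal side-chain shortening, fell by 0.59 ± 0.0453 and the acyl-CoA synthetase gene SLC27A2 by 0.39 ± 0.0747. Their median log2 change was 8.5e-05, close to that of all genes. Among 8 tested transporters of 14, 2 rose and 5 fell (0 and 5 with plain totals). The sterol exporter genes ABCG5 and ABCG8 fell by 1.15 ± 0.0825 and 0.70 ± 0.0707, SLCO2B1, an organic anion uptake carrier, by 0.79 ± 0.0689, while ABCC2, the canalicular conjugate exporter, rose by 0.26 ± 0.0405 (-0.01 with plain library totals). ABCB11, the canalicular bile salt export pump and an FXR target in liver, had at most 2 counts in any library.

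Among 12 tested receptors and regulators of 13, 6 rose and 4 fell (3 and 5 with plain totals). HNF4A, a hepatocyte transcription factor, rose by 0.39 ± 0.0373, the coactivator PPARGC1A by 0.78 ± 0.0756 and MAFG, a repressor that FXR induces in mouse liver, by 0.55 ± 0.0574. The vitamin D receptor VDR, which also binds lithocholic acid, fell by 1.98 ± 0.214. Among 11 other genes reported as FXR targets, 2 rose and 6 fell (0 and 8 with plain totals), with a median of -0.33. The kininogen gene KNG1 fell by 2.27 ± 0.136, the fibrinogen chains FGG and FGA by 0.94 ± 0.0576 and 0.82 ± 0.0444, and the sulfotransferase SULT2A1 by 0.39 ± 0.0492. NR0B2, SLC51A, SLC51B and BAAT thus rose in the same libraries in which more of these other targets fell than rose.

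**Figure D3:**
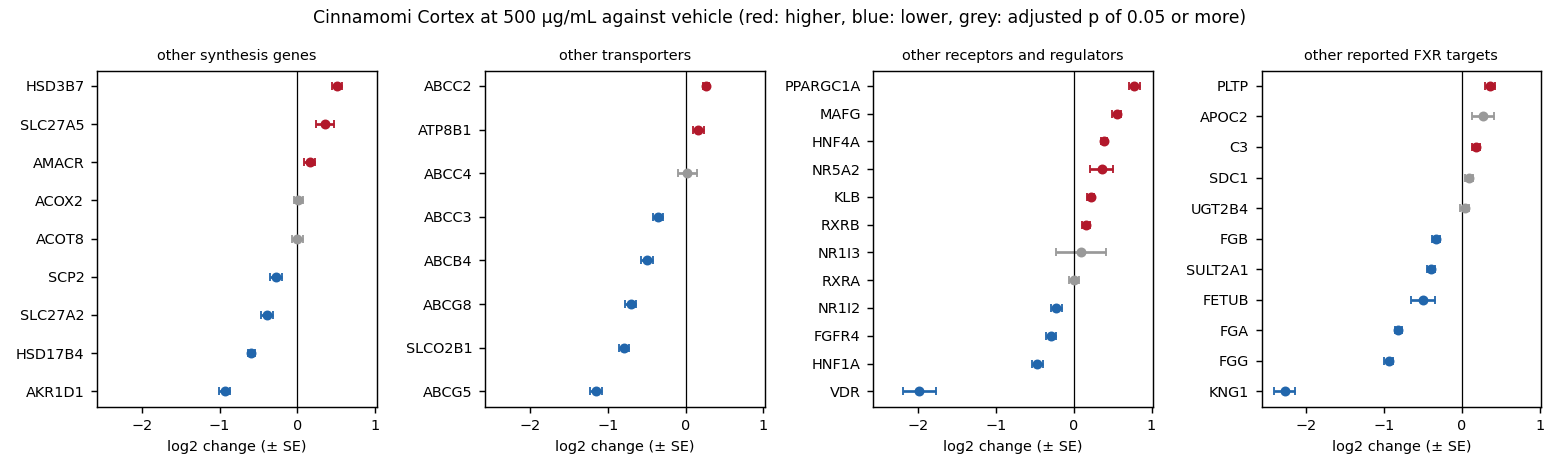
Log2 change (x axis, ± SE) of 40 other tested genes of the pathway with Cinnamomi Cortex at 500 µg/mL against vehicle, 3 libraries each, in 4 lists on the y axes. Red genes rose, blue fell and grey were not called. KNG1, VDR and ABCG5 lie farthest to the left.

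NR0B2 was above vehicle with every extract and not only with Cinnamomi Cortex. It rose in 16 of 18 extract groups, and 53 of 54 extract libraries lay above all 3 vehicle libraries. All 18 comparisons share these vehicle libraries, so they are not separate results. The 1 extract library not above them was Astragali Radix at 500 µg/mL, replicate 1, with 42.7 CPM against a highest vehicle value of 43.3 CPM. Of all tested genes, 0.408% had all 54 extract libraries above vehicle, a stricter rule that NR0B2 did not meet. The share with at least 53 above was not computed, nor was the share called in at least 16 of the 18 groups. The 2 groups not called were Astragali Radix at 500 µg/mL (0.26 ± 0.11, adjusted p = 0.211) and Sagunja-tang at 500 µg/mL (0.29 ± 0.108, adjusted p = 0.0659). Astragali Radix passed without the filter on low counts (adjusted p = 0.0112) and without the replicate 1 libraries of set 6 (0.35, adjusted p = 0.00667), and its adjusted p was 0.0836 to 0.27 under the other alternatives against vehicle. Sagunja-tang passed without the filter (adjusted p = 0.00039), when only the compared groups were fitted (adjusted p = 0.0176) and in DESeq2 (adjusted p = 0.0434), and its adjusted p was 0.0532 to 0.0947 under the others.

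In contrast to Cinnamomi Cortex, the other 5 tested extracts had their highest NR0B2 mean at 20 µg/mL. Samul-tang gave 65.5, 78.6 and 65.8 CPM at 20 µg/mL, 57, 55.7 and 58.3 CPM at 100 and 57.98, 56.1 and 48.9 CPM at 500. Its NR0B2 fell with dose by 0.18 ± 0.0530 per step (adjusted p = 0.0214, with 9.88% of genes called). That call ended without the 20 µg/mL replicate 2 or the 500 µg/mL replicate 3 (adjusted p up to 0.362) and when only the Samul-tang groups were fitted (adjusted p = 0.0946). Sagunja-tang gave 63.6, 63.2 and 63.7 CPM at 20 µg/mL, 54.3, 54.2 and 53.0 CPM at 100 and 47.9, 54.1 and 51.2 CPM at 500. All 3 libraries at 20 µg/mL were above the other 6, but the trend of -0.16 ± 0.0530 missed the threshold (adjusted p = 0.0766, with 4.99% of genes called). It passed in 3 of the alternatives, with adjusted p of 8.21e-05, 0.00294 and 0.046.

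Cnidii Rhizoma gave 69.7, 73.9 and 69.2 CPM of NR0B2 at 20 µg/mL and 65.1, 59.2 and 58.4 CPM at 500, with a trend of -0.11 ± 0.0527 (adjusted p = 0.3). The high and low doses did not overlap. Rehmanniae Radix Preparata gave 78.4, 66.4 and 63.0 CPM at 20 µg/mL and 67.3, 62.5 and 70.4 CPM at 500, with an uncalled trend of -0.03 ± 0.0528 (adjusted p = 0.911, with 0.674% of genes called). Astragali Radix gave 51.5, 67.8 and 61.8 CPM at 20 µg/mL and 42.7, 55.5 and 50.8 CPM at 500 (-0.14 ± 0.0542, adjusted p = 0.268, with 1.16% called). In both Astragali Radix and Cinnamomi Cortex replicate 1 was the lowest at each dose. NR0B2 with Cinnamomi Cortex had 51.3, 75.7 and 72.8 CPM at 20 µg/mL and 59.5, 84.2 and 81.8 CPM at 100, so replicate 1 alone widened both groups. Because the vehicle libraries hold none of the set numbers, what sets all extract groups above vehicle at 20 µg/mL cannot be told apart from the set. Nor can it be told apart from a difference in solvent, since the extract labels name no dimethyl sulfoxide.

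Calls of NR0B2 against vehicle differed in how far they rested on single libraries. At 20 µg/mL it rose by 0.77 ± 0.107 with Cnidii Rhizoma (6.49% of all genes called), 0.73 ± 0.108 with Rehmanniae Radix Preparata (7.19%), 0.53 ± 0.108 with Astragali Radix (3.93%), 0.605 ± 0.107 with Sagunja-tang (11.4%) and 0.75 ± 0.107 with Samul-tang (20.7%), and each call held without any single library. At 100 µg/mL the log2 changes were 0.59 with Cnidii Rhizoma, 0.64 with Rehmanniae Radix Preparata, 0.44 with Astragali Radix (2.26% of all genes called), 0.37 with Sagunja-tang (8.85%) and 0.45 with Samul-tang (8.08%). Those of Astragali Radix (ended without vehicle replicate 1 or 2 or extract replicate 2 or 3, adjusted p up to 0.138) and Sagunja-tang (ended without vehicle replicate 1 or 2 or any extract replicate, up to 0.101) were less stable. At 500 µg/mL Samul-tang (0.38 ± 0.109, 13.7% of all genes called) lost its call without vehicle replicate 2 or extract replicate 1 (up to 0.0791). Rehmanniae Radix Preparata (0.68 ± 0.107, 7.45%) and Cnidii Rhizoma (0.55 ± 0.109, 11.8%) kept theirs.

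Cnidii Rhizoma raised the transporter subunit gene SLC51A with dose. SLC51A had 28.7, 27.7 and 28.4 CPM at 20 µg/mL, 30.2, 32.6 and 32.7 CPM at 100 and 37.2, 39.1 and 37.4 CPM at 500. The 3 doses did not overlap, and all 9 libraries were above the vehicle values of 23.4, 26.3 and 24.5 CPM. The trend was 0.21 ± 0.0370 per step (adjusted p = 0.000179, with 3.22% of genes called). Against vehicle the change was 0.36 ± 0.0753 at 100 µg/mL (adjusted p = 0.00253, 3.58% called) and 0.62 ± 0.0748 at 500 (adjusted p = 9.07e-08), or 1.53-fold. These calls held without any single library and under each scaling and test tried.

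Rehmanniae Radix Preparata, of the same set, had 28.3, 27.0 and 27.9 CPM of SLC51A at 500 µg/mL, so Cnidii Rhizoma was higher by 0.46 ± 0.0746 (adjusted p = 0.000207). In that comparison 0.705% of all genes and 1 of the 8 were called. The difference between the 2 dose trends, 0.18 ± 0.0534, did not pass (adjusted p = 0.329), in a test that called 0.0680% of genes. SLC51B did not follow SLC51A with Cnidii Rhizoma. It had 8.30, 7.19 and 9.54 CPM at 500 µg/mL, against 7.92, 7.77 and 8.18 CPM with vehicle, and a trend of -0.05 ± 0.0516 (adjusted p = 0.745). PCYT1A, which overlaps SLC51A, had a trend of 0.02 ± 0.0162 with Cnidii Rhizoma (adjusted p = 0.646). In the other lists Cnidii Rhizoma at 500 µg/mL lowered SULT2A1 (-0.25 ± 0.0489), FGG (-0.28 ± 0.0571), FGA (-0.16 ± 0.0441), KLB (-0.14 ± 0.0444) and SLCO2B1 (-0.20 ± 0.0662), and raised HNF4A (0.19 ± 0.0373) and ABCC2 (0.12 ± 0.0405), 7 of 40 in all. The calls of FGA (without vehicle or extract replicate 1), KLB (without replicate 1 or 3 of either group), SLCO2B1 (without vehicle replicate 1 or 3 or extract replicate 3) and ABCC2 (without vehicle replicate 1 or 2 or extract replicate 2 or 3) ended, with adjusted p up to 0.161, 0.145, 0.232 and 0.194. Of all genes 11.8% were called with Cnidii Rhizoma at 500 µg/mL against vehicle. With only the compared groups SULT2A1 alone was called of the 40, and the other 6 had adjusted p of 0.0681 to 0.238.

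**Figure D4:**
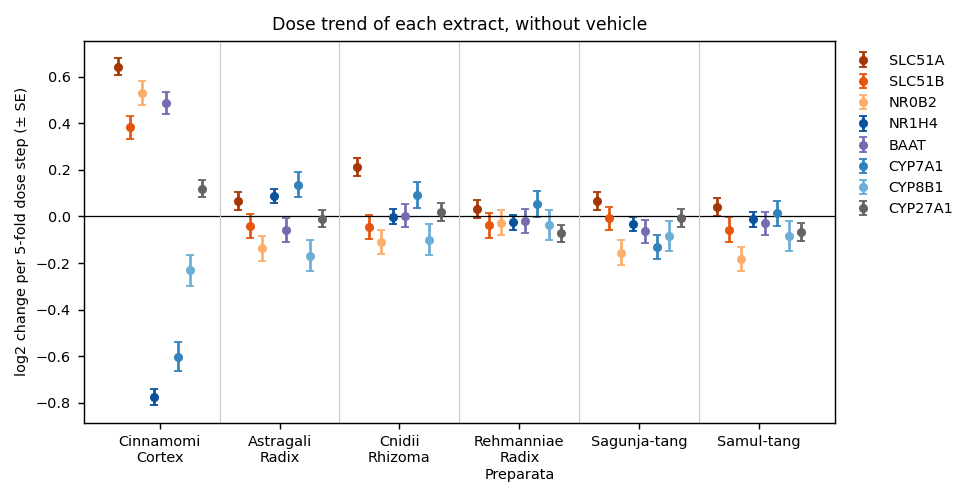
Log2 change per 5-fold dose step (y axis, ± SE) of the 8 tested genes for each of 6 extracts (x axis), without vehicle. Each value compares the highest with the lowest dose within 1 set and gives the middle dose no weight. Cinnamomi Cortex has the widest spread, SLC51A is at 0.21 with Cnidii Rhizoma, and NR0B2 is below 0 with the other 5 extracts.

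The remaining calls against vehicle were smaller and most rested on single libraries. BAAT was above all vehicle libraries in 12 of 18 groups and rose in 5. How often other genes lay above all vehicle libraries in this way was not computed, so the 12 groups say nothing particular about BAAT. Outside Cinnamomi Cortex it rose with Cnidii Rhizoma at 500 µg/mL (0.31 ± 0.102, adjusted p = 0.0362), Rehmanniae Radix Preparata at 20 (0.32 ± 0.103, adjusted p = 0.042) and Sagunja-tang at 20 (0.33 ± 0.0999, adjusted p = 0.0244). Each of the 3 calls ended without vehicle replicate 2 or 3 or without replicate 1 or 3 of its own group, with adjusted p up to 0.283, 0.264 and 0.11. BAAT had no dose trend in any of these extracts (-0.06 to 0.00 per step).

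CYP7A1 fell with Rehmanniae Radix Preparata at 100 µg/mL, to 3.70, 3.92 and 3.26 CPM, against 5.66, 4.76 and 4.92 CPM with vehicle. The change of -0.50 ± 0.11 (adjusted p = 0.00377, 4.17% of genes called) ended without extract replicate 3 (adjusted p = 0.0557). At 500 µg/mL of the same extract CYP7A1 had 5.12, 5.05 and 4.00 CPM, of which the lowest lay below all vehicle libraries, and the change was not called (-0.12 ± 0.105, adjusted p = 0.563). With Cnidii Rhizoma at 100 µg/mL it fell to 3.75, 3.62 and 4.31 CPM (-0.39 ± 0.109, adjusted p = 0.0324), a call that ended without vehicle replicate 1 or 3 or extract replicate 1 or 2 (up to 0.197). CYP7A1 thus had its lowest mean at the middle dose in both extracts of set 5. The same held for Astragali Radix, Sagunja-tang and Samul-tang (4.33, 4.34 and 4.74 CPM at 100 µg/mL), but not for Cinnamomi Cortex. Neither dose trend of set 5 passed, but the trend gives the 100 µg/mL libraries no weight and cannot decide on a low middle dose.

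CYP27A1 was below all vehicle libraries in 10 of 18 groups and passed the test in 2, both of Sagunja-tang. The share of all genes that lay below vehicle in this way was not computed, so the 10 groups say nothing particular about CYP27A1. Which groups passed depended on the settings. Without the filter on low counts it also passed with Rehmanniae Radix Preparata and Samul-tang at 500 µg/mL and with Cinnamomi Cortex, Sagunja-tang and Samul-tang at 100 (adjusted p = 0.0116 to 0.0363). With only the compared groups it passed in those groups other than Samul-tang at 500 µg/mL, and with Cinnamomi Cortex at 20 (adjusted p = 0.0109 to 0.0426). At 500 µg/mL it had 132, 130 and 139 CPM, against 162, 161 and 157 CPM with vehicle (-0.26 ± 0.0747, adjusted p = 0.0171, 12.3% of genes called). At 20 µg/mL it had 126, 140 and 138 CPM (-0.25 ± 0.0747, adjusted p = 0.0244), and the dose trend was -0.01 ± 0.0375. The first call ended without vehicle or extract replicate 1 or 2 (up to 0.0613) and the second without vehicle replicate 1 or 2 or extract replicate 1 (up to 0.141). SLC51A was lower than vehicle with Sagunja-tang at 20 µg/mL, at 20.7, 20.0 and 21.2 CPM (-0.26 ± 0.0773, adjusted p = 0.0195), which ended without vehicle replicate 2 or extract replicate 1 or 2 (up to 0.138). NR1H4 was higher with Astragali Radix at 500 µg/mL, at 60.9, 56.97 and 59.2 CPM, against 53.6, 50.1 and 49.7 CPM with vehicle (0.21 ± 0.0606, adjusted p = 0.0465, 3.04% of genes called). That call ended without any one of the 6 libraries, with values of 0.18 to 0.24 and adjusted p up to 0.154.

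**Figure D5:**
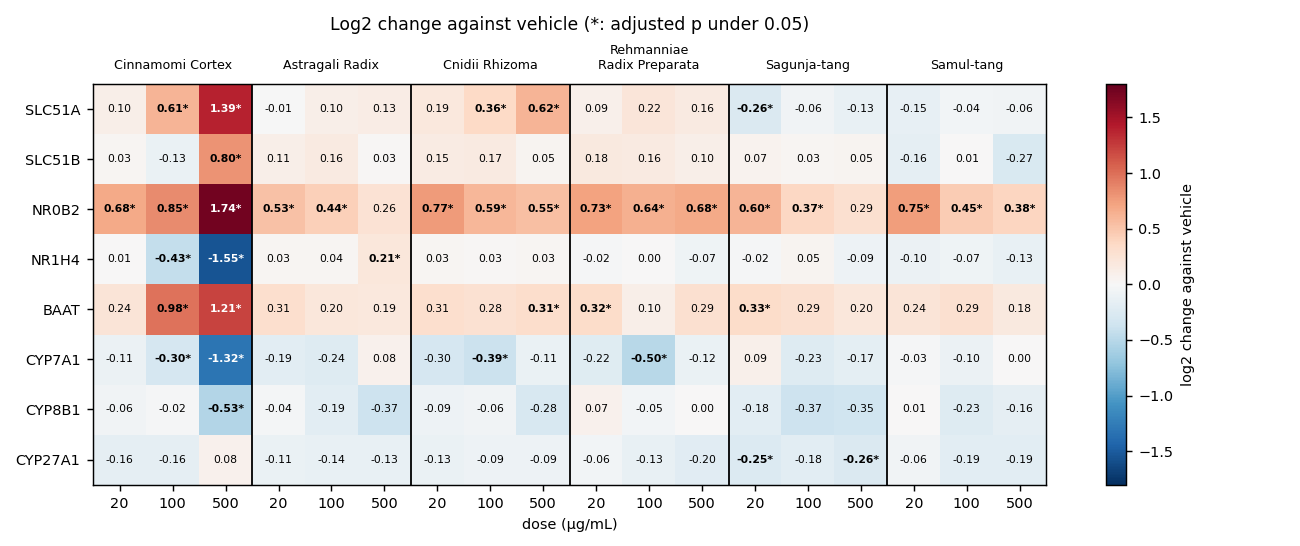
Log2 change against vehicle of the 8 tested genes (rows) in 18 extract groups (columns, by dose in µg/mL), 3 libraries a group, with a star at an adjusted p under 0.05. Stars stand in 37 of 144 cells, 16 of them in the NR0B2 row. Of all tested genes, 2.26% (Astragali Radix at 100 µg/mL) to 62.7% (Cinnamomi Cortex at 500 µg/mL) were called per column. All 18 columns share the same vehicle libraries.

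Between Sagunja-tang and Samul-tang, of set 7, few genes of any kind were called. At 500 µg/mL edgeR called 0.885% of all genes and 0 of the 8, and for the difference of dose trends 0.142% of all genes and 0 of the 8, so these counts say nothing particular about the bile acid genes. SLC51B had 8.68, 8.22 and 7.81 CPM with Sagunja-tang, against 6.24, 6.65 and 6.88 CPM with Samul-tang. These libraries did not overlap, but the log2 change of 0.33 ± 0.107 was not called (adjusted p = 0.149). In the other lists both formulas at 500 µg/mL lowered SULT2A1 (-0.32 ± 0.0488 and -0.36 ± 0.0490) and KNG1 (-0.65 ± 0.108 and -0.68 ± 0.11) and raised ABCC2 (0.25 ± 0.0404 in each) against the vehicle libraries they share. ABCG5 (-0.38 ± 0.0747) fell with Sagunja-tang, and VDR (-0.60 ± 0.176) fell with Samul-tang. In all, 12 of 40 were called with Sagunja-tang and 10 with Samul-tang, where 12.3% and 13.7% of all genes were called against vehicle. When only the compared groups were fitted, 6 were called with each. The call of VDR ended without vehicle replicate 2 or 3 or extract replicate 2 (adjusted p up to 0.112), without the filter (0.0514) and with only the compared groups (0.071). Rehmanniae Radix Preparata lowered KNG1 (-0.48 ± 0.107), SULT2A1 (-0.19 ± 0.0487), SCP2 (-0.27 ± 0.0716) and AMACR (-0.25 ± 0.0687). SCP2 and AMACR act in peroxisomal side-chain handling. These were 4 of 8 called among the 40, where 7.45% of all genes were called, and 5 were called with only the compared groups. The call of KNG1 held without any single library, whereas those of SULT2A1 (without vehicle replicate 1 or extract replicate 3, up to 0.0636), SCP2 (without vehicle or extract replicate 1, up to 0.137) and AMACR (without vehicle replicate 1 or 3 or extract replicate 2, up to 0.129) ended. With Astragali Radix AMACR (-0.28 ± 0.0699) was the only one of the 40 called, where 3.04% of all genes were called. That call ended without vehicle replicate 1 or 3 or extract replicate 1 or 2 (adjusted p up to 0.083) and with only the compared groups (0.0635).

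Palmul-tang, with 1 library per dose, was not tested. NR0B2 had 63.6, 55.9 and 57.8 CPM at 20, 100 and 500 µg/mL, all 3 above the highest vehicle library (43.3 CPM). CYP7A1, at 3.96, 3.90 and 4.38 CPM, and CYP27A1, at 144, 139 and 132 CPM, were below the lowest vehicle library (4.76 and 157 CPM) at each dose. SLC51A had 27.8, 28.1 and 26.8 CPM, just above the highest vehicle value of 26.3 CPM. The share of all genes with the 3 Palmul-tang libraries outside the vehicle range was not computed, so these positions say nothing particular about these genes. Palmul-tang is alone in set 8, so its extract and its set cannot be told apart. NR1H4 had 51.3, 46.3 and 42.1 CPM and SLC51B 8.23, 8.04 and 5.98 CPM, with the 500 µg/mL library the lowest of the 3 for both.

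Over the means of 19 groups, which share libraries' scaling and 1 of which (Cinnamomi Cortex at 500 µg/mL) lies far from the rest, the genes most like each member by Pearson's r of log2 CPM were as follows. For SLC51A they were the creatine transporter gene SLC6A8 (0.971), SRA1 (0.966) and MT-CO2 (0.957), and for NR0B2 HERPUD1 (0.969), COPG1 (0.955) and PPP1R13L (0.955). For NR1H4 they were the urea cycle gene CPS1 (0.987), MPHOSPH10 (0.986) and WNK3 (0.984), and for BAAT RNASET2 (0.948), MTHFD2 (0.948) and MT-RNR1 (0.941). SLC51B was most like COP1 (0.907), CYP7A1 like PKD1P2 (0.933), CYP8B1 like COQ10A (0.84) and CYP27A1 like SLC35A2 (0.892). Without Cinnamomi Cortex at 500 µg/mL, over 18 groups, CPS1 stayed first for NR1H4 (0.917), HERPUD1 first for NR0B2 (0.91), and SLC6A8 second for SLC51A (0.923) after ENO1 (0.928), while PPARG (0.903) became first for BAAT. Between the 2 exporter subunits r was 0.708 over 19 groups and 0.166 over the 18.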

How the data were processed

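Total RNA with an integrity number above 7 was made into directional libraries and read as 100 bp paired ends, per the labels' protocols. Per the submitters' processing notes, which give no order or roles, the tools were RSEM 1.3.3, STAR 2.7.3a, FastQC 0.11.9 and Trim Galore 0.6.5. The authors deposited expected counts per gene, not scaled for depth or length. Of the values, 8.58% were not whole, and all were rounded before testing. Of 270 sample columns 60 were used, and 210 that match no label were not used here. Gene names and positions are from GENCODE 29, which held 57055 of the 60675 identifiers.

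Genes were filtered by group (filterByExpr) and fitted in edgeR 4.0.16 (R 4.3.3, limma 3.58.1) with TMM scaling and the quasi-likelihood test over 57 libraries in 19 groups. Palmul-tang was left out of the fit. P-values were adjusted by Benjamini-Hochberg over 16167 genes within each comparison, all two-sided. The dose trend is the log2 ratio of 500 to 20 µg/mL divided by the number of 5-fold steps. The libraries of a group differed from each other by a chi-square per gene of 3.19 to 42.9 over 57 pairs, so none was a duplicate. On simulated counts for Cinnamomi Cortex at 500 µg/mL against vehicle (15968 genes, 50 changed per size), 32% of 1.2-fold, 76% of 1.5-fold, 88% of 2-fold and 90% of 3-fold changes were recovered, with 9 false calls of 152. No other genes were changed in the simulation, whereas 62.7% of genes were called in the data. These rates therefore do not describe that comparison.

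The 10 genes and the other lists were chosen with earlier results of these data known. Of the other lists, up to 4 called genes per list and extract at 500 µg/mL were eligible to be named, in the order of adjusted p. Genes of similar pattern are the 3 with the highest r per gene, from those with a mean of at least 2 CPM. Promoters are from RefSeq, and those of 6 of the 10 genes were searched. NR0B2, CYP8B1 and FGF19 had no entry, and CYP7A1, on chromosome 8, was left out by rule. Alternatives were other scalings, no filter, fits of the compared groups alone, DESeq2 1.42.0 (Wald test), a replicate block, each library left out, the same extract at 20 µg/mL in place of vehicle, and set 6 without replicate 1. Plain library totals and the single dose steps were added after seeing the data.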

Additional observations from a re-analysis of the deposited data

Results flagged for a closer look

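For 7 of the 8 tested genes the dose trend of Cinnamomi Cortex differed from that of Astragali Radix, the other extract of set 6, by a test of the difference itself (edgeR, adjusted over all genes), in which 50.9% of all genes were called. The difference in log2 change per 5-fold step, Cinnamomi Cortex minus Astragali Radix, was 0.58 ± 0.0531 for SLC51A (adjusted p = 4.05e-13), 0.43 ± 0.0723 for SLC51B (adjusted p = 2.18e-06), 0.67 ± 0.0747 for NR0B2 (adjusted p = 1.17e-10) and 0.55 ± 0.0699 for BAAT (adjusted p = 4.31e-09). It was -0.87 ± 0.0458 for NR1H4 (adjusted p = 2.43e-21) and -0.74 ± 0.0833 for CYP7A1 (adjusted p = 1.46e-10). These 6 calls held without any single library. NR0B2 and NR1H4 had trends of 0.53 and -0.78 with Cinnamomi Cortex, against -0.14 and 0.09 with Astragali Radix. For CYP27A1 the difference was 0.13 ± 0.0531 (adjusted p = 0.0393). That call ended without Cinnamomi Cortex replicate 3 at 20 µg/mL or 2 or 3 at 500, or without Astragali Radix replicate 1 or 2 at 20 µg/mL or 2 or 3 at 500, with values of 0.10 to 0.17 and adjusted p up to 0.135, and with plain library totals the difference was -0.00116. CYP8B1 had a difference of -0.06 ± 0.0949 (adjusted p = 0.608).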

How the results depend on the processing

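The calls of SLC51A, SLC51B, NR0B2, NR1H4, BAAT, CYP7A1 and CYP8B1 with Cinnamomi Cortex at 500 µg/mL and of SLC51A with Cnidii Rhizoma held under the alternatives run. Plain library totals moved the median of all genes by -0.28 at 500 µg/mL of Cinnamomi Cortex and turned CYP27A1 (-0.20), AMACR (-0.12), ABCC2 (-0.013), ATP8B1 (-0.11), RXRB (-0.12), KLB (-0.0585) and C3 (-0.10), and for CYP27A1 the dose trend (-0.014), the comparison with Astragali Radix (-0.056) and the difference of trends (-0.00116). With the same extract at 20 µg/mL in place of vehicle, NR0B2 was -0.22 with Cnidii Rhizoma, -0.053 with Rehmanniae Radix Preparata and -0.37 with Samul-tang, PPARGC1A -0.046 and UGT2B4 0.00054 with Samul-tang, RXRB -0.0034 with Cinnamomi Cortex and FGB 0.016 with Sagunja-tang. The cause was not tested.

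Of the 8 genes, the number called at 500 µg/mL was 1 with Rehmanniae Radix Preparata, and 2 without the filter, with only the compared groups or with plain totals. For Astragali Radix 1 became 0 with the compared groups alone or plain totals. For Sagunja-tang 1 became 2 with those, without the filter and in DESeq2, and for Samul-tang 1 became 2 without the filter. Against 20 µg/mL the numbers were 1 with Cnidii Rhizoma, in place of 3, and 0 with Rehmanniae Radix Preparata, Astragali Radix and Sagunja-tang, in place of 1. At 100 µg/mL 1 became 2 without the filter (Sagunja-tang, Samul-tang) or in DESeq2 (Sagunja-tang) and 3 with the compared groups alone (both). At 20 µg/mL 1 became 2 with Cnidii Rhizoma (DESeq2, compared groups), Cinnamomi Cortex (compared groups) and Astragali Radix (without replicate 1 of set 6), and 2 became 1 with Rehmanniae Radix Preparata (no filter, compared groups, plain totals). For trends, 1 became 2 with Cnidii Rhizoma and 0 became 1 with Astragali Radix without the filter, 0 became 1 with Sagunja-tang without the filter, with the compared groups alone or in DESeq2, and 1 became 0 with Samul-tang with the compared groups alone. Leaving out 1 library gave 0 to 1 for Astragali Radix and Sagunja-tang at 100 µg/mL and the Samul-tang trend, 0 for Astragali Radix at 500, 1 to 2 for Astragali Radix, Cnidii Rhizoma, Rehmanniae Radix Preparata and Samul-tang at 20 and Rehmanniae Radix Preparata at 100, 1 to 3 for Sagunja-tang at 20, and 0 to 2 for Sagunja-tang and Samul-tang at 500.

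Over all genes, the compared groups alone called 752 in place of 1904 with Cnidii Rhizoma, 278 in place of 492 with Astragali Radix and 1014 in place of 1984 with Sagunja-tang at 500 µg/mL, and at 20 µg/mL 628 in place of 1162 with Rehmanniae Radix Preparata, 395 in place of 635 with Astragali Radix and 142 in place of 3353 with Samul-tang. For trends they called 320 in place of 520 (Cnidii Rhizoma), 97 in place of 187 (Astragali Radix) and 72 in place of 1597 (Samul-tang). The Samul-tang count was 153 without its 20 µg/mL replicate 2 and 2904 without its 20 µg/mL replicate 1. Between Cnidii Rhizoma and Rehmanniae Radix Preparata the count was 114 at 500 µg/mL (19 with the compared groups alone, 368 without the filter) and 11 for trends (6, 138, and 19 in DESeq2). Between Sagunja-tang and Samul-tang it was 143 (11, 233, and 217 in DESeq2) and 23 for trends (7, 250, and 70 in DESeq2). Without the filter it was 559 in place of 366 with Astragali Radix at 100 µg/mL, 281 in place of 109 for the trend of Rehmanniae Radix Preparata and 292 in place of 187 for that of Astragali Radix, which was 110 without replicate 1 of set 6. Against 20 µg/mL in place of vehicle it was 520 with Cnidii Rhizoma, 109 with Rehmanniae Radix Preparata (1205 against vehicle), 187 with Astragali Radix and 807 with Sagunja-tang. Over all genes, same-numbered replicates had a median correlation of deviations of 0.00613 (range -0.171 to 0.203), and within set 6 of 0.0297, with 3 of 45 pairs over 0.1, so the numbers were not taken to pair samples. In set 6 replicate 1 was nevertheless the lowest of its group in 6 of 6 groups for NR0B2 and 5 of 6 for SLC51A. The replicate block moved 1 count by over 1.5 times, the difference of trends of Sagunja-tang and Samul-tang, to 41 in place of 23. Low counts limit FGF19, SLC10A1 and the 12 untested genes of the other lists.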
